A study of Drosophila melanogaster with 5 samples.

Results

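The tubulin family of Drosophila melanogaster was followed in testes in which Bam, the protein that takes spermatogonia out of proliferation, was supplied by a pulse of heat. The family was taken as 10 named genes, 4 alpha-tubulins, 4 beta-tubulins and 2 gamma-tubulins, and all 10 had a row among the 17528 features of the table, of which 14819 were genes and 2709 were transposons. All 5 libraries came from males of the genotype hs-bam; bam[1]/bam[86], so that the unheated animals carried the same transgene and the same pair of bam mutant alleles as the heated ones. The heat pulse was 30 min at 37 °C, given in the pupal stage (mid to late) of animals otherwise kept at 25 °C. Testes were collected without heat shock (no HS) and at 8, 16, 24 and 32 h post heat shock (PHS).

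Each library was made from polyadenylated RNA of about 100 pairs of testes with the seminal vesicles attached. The transgene is under a heat shock promoter and can be expressed in any heated cell, germ line or soma. There was 1 library per condition, and no heat-shocked testes without the transgene were analysed here, so that heat shock, time and Bam cannot be told apart. No test was run and no p-value or standard deviation between replicates is given. Whole organs were sequenced, and a lower value can come from fewer cells of a type or from less RNA per cell, which cannot be told apart here.

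Depth ran from 10356663 reads in no HS to 28766676 reads after 24 h, and 1 CPM (the unit of the table, reads scaled to a common library size of 1000000 with the normalization of the authors) was worth 10.3 to 28.6 reads. The bam gene itself, whose reads may include those of the transgene, was at 64.7 CPM in no HS, 128 after 8 h, 90.4 after 16 h, 74.2 after 24 h and 60.5 after 32 h, highest in the first library after the heat pulse. The 15 genes of a spermatocyte list summed to 216, 205, 163, 380 and 1099 CPM in the same order, and the 7 germ line genes to 1601, 1501, 1358, 1415 and 1263 CPM. Genes of lists for muscle sheath (12 genes), somatic cyst cells (9) and neurons (6) also had reads in every library. The neuron genes summed to 26.3 CPM in no HS, of which elav gave 18.0, and fne had 1 to 5 reads per library. The 9 accessory gland genes summed to at most 2.66 CPM.

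Tubulins are the subunits of microtubules. An alpha- and a beta-tubulin form a dimer that is added to the ends of the polymer, and gamma-tubulin sits in ring-shaped complexes from which new microtubules start. Flies carry several genes for each class, and testis biology is known for an exchange between them: dividing germ cells use the general beta-tubulin betaTub56D, and spermatocytes switch on betaTub85D, which builds the meiotic spindles and the sperm axoneme. betaTub60D is the beta-tubulin of somatic cells such as muscle and cyst cells.

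By FlyBase identifier and the BDGP6.54 annotation, a newer release than the BDGP6.46 used by the authors, the beta-tubulin genes are spread over 2 chromosome arms. betaTub56D (FBgn0284243) lies on 2R from 19447319 to 19451600 on the minus strand, and betaTub60D (FBgn0288686) on 2R from 24305881 to 24313099 on the plus strand. betaTub85D (FBgn0003889) lies on 3R from 9408383 to 9410282 and betaTub97EF (FBgn0003890) on 3R from 27967008 to 27988384, both on the minus strand. The last of these has 7 exons spread over 21377 bases, against 2 exons in betaTub56D and in betaTub85D and 4 in betaTub60D.

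Of the alpha-tubulin genes, alphaTub84B (FBgn0003884) occupies 3R from 7086599 to 7088839 and alphaTub84D (FBgn0003885) 3R from 7530753 to 7532732, both on the plus strand. alphaTub85E (FBgn0003886) lies on 3R from 9731221 to 9733250 on the minus strand and alphaTub67C (FBgn0087040) on 3L from 9681268 to 9683370 on the plus strand. The gamma-tubulin genes are both on 2L, gammaTub23C (FBgn0260639) from 2972891 to 2974858 on the plus strand and gammaTub37C (FBgn0010097) from 19183863 to 19185726 on the minus strand. No exonic base of any member was shared with another annotated gene.

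Against no HS, no tubulin gene was more than 2-fold higher at any time, 2 were more than 2-fold lower at 16 h PHS, and 1 at 24 and at 32 h PHS. The genes past the line were alphaTub67C, the alpha-tubulin known for its supply by the mother to the egg, and gammaTub37C, the gamma-tubulin of the female germ line. Change is the difference of log2(CPM + 1), which understates the change of genes at a few CPM, and a change past 1 is called 2-fold. None of the 10 was called at 8 h PHS, where 0.2% of all features were called higher and 0.165% lower. The 2 genes called lower at 16 h stand beside 0.416% of all features, and alphaTub67C alone at 24 and 32 h beside 0.987% and 1.18%. Both calls at 16 h were lost with 5 CPM added in place of 1, and that of alphaTub67C also with the 8 h library (-0.77) or the mean of no HS and 8 h (-0.98) as the baseline. Where a feature had to reach 10 CPM in either library, 0.554% were called lower at 16 h, and alphaTub67C was the tubulin gene among them. Features called higher were 0.228%, 0.548% and 1.13% of all at 16, 24 and 32 h, with 0 tubulin genes among them.

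**Figure D1:**
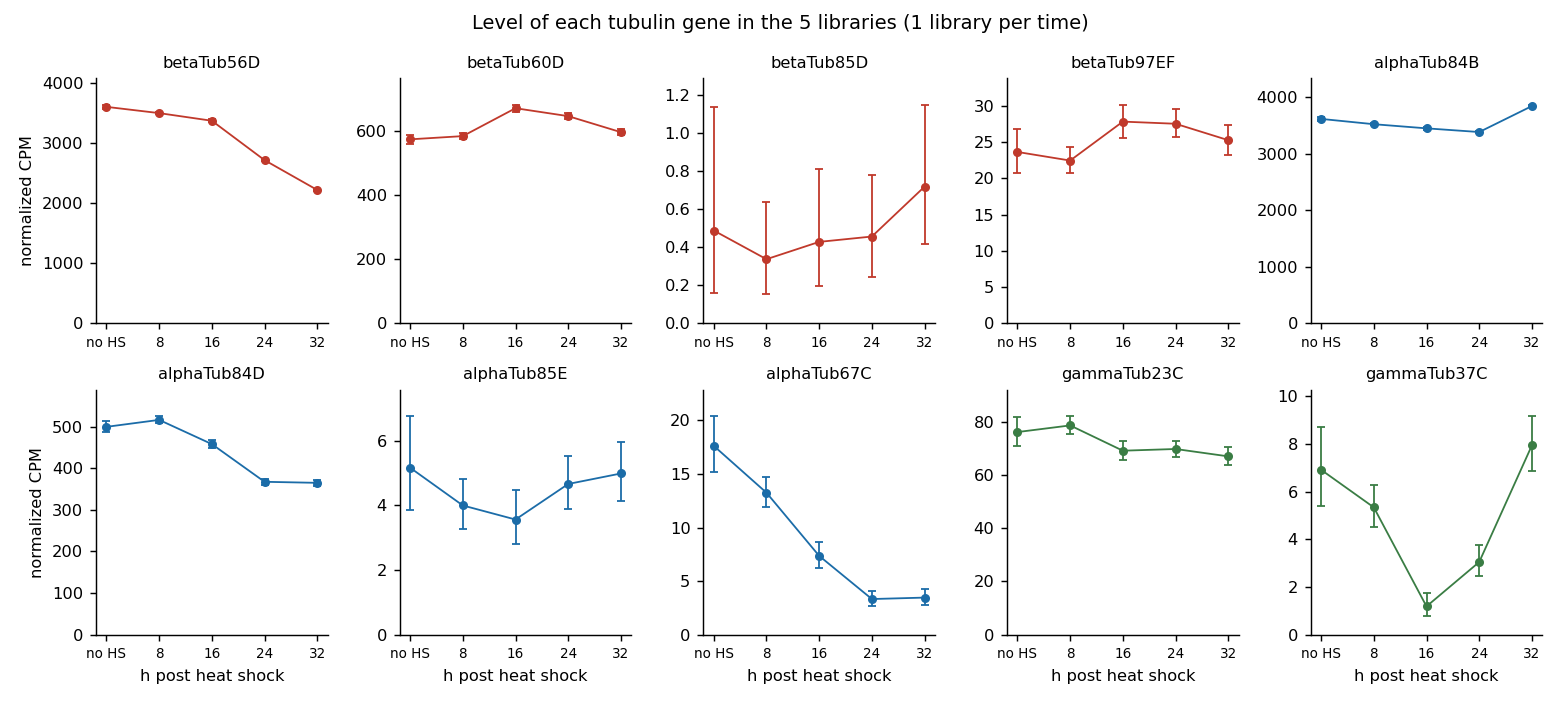
Normalized CPM (y axis, linear, starting at 0) of the 10 tubulin genes in the no HS library and at 8, 16, 24 and 32 h post heat shock (x axis). Each point is 1 library and the bars are 95% Poisson intervals, which cover counting error only; betaTub56D and alphaTub67C are lowest at the late times, gammaTub37C is lowest at 16 h, and betaTub85D stays under 1 CPM.

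The median change of the 10 genes was -0.06 after 8 h, -0.11 after 16 h, -0.12 after 24 h and 0.01 after 32 h. Over the 6352 features that reached 10 CPM in each of the 5 libraries, the median change lay between -0.00 and 0.01 and the standard deviation of the changes across features grew from 0.20 after 8 h to 0.37 after 32 h. As a whole the family stayed near the centre of all features, while its members differed in course. Together the 10 genes took 0.835% of all reads in no HS, 0.832% after 8 h, 0.791% after 16 h, 0.716% after 24 h and 0.731% after 32 h.

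betaTub85D, the testis beta-tubulin, stayed at the edge of detection through 32 h PHS. It had 5 reads in no HS, 9 after 8 h, 9 after 16 h, 13 after 24 h and 17 after 32 h. Corrected for depth, these were 0.487, 0.336, 0.427, 0.455 and 0.718 CPM, where 3 reads were worth 0.105 to 0.292 CPM. The 32 h library had the highest value and the 8 h library the lowest.

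The counting interval of the 32 h value ran from a log2 ratio of -0.94 to 2.35 against no HS and from -0.15 to 2.44 against 8 h PHS. Intervals are 95% Clopper-Pearson intervals from the reads of both libraries. They cover counting error only, and they compare libraries rather than conditions. PCR copies are not separate molecules, so that where the reads include them the intervals are too narrow. All 4 intervals against no HS held 0, so that a change of betaTub85D was not detectable at this depth, while a rise as large as the upper bound is not excluded.

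Set against the other beta-tubulins per kilobase of exon, betaTub85D made up 0.0122% of the class in no HS, 0.00863% after 8 h, 0.0111% after 16 h, 0.0144% after 24 h and 0.0272% after 32 h. In plain reads its share of the beta-tubulin reads was 0.0253% after 32 h (exact 95% interval 0.0147% to 0.0405%) and 0.0116% in no HS (0.00377% to 0.0271%). These intervals overlap. The share also carries the decrease of betaTub56D, the largest part of its denominator.

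The genes of the spermatocyte list differed among themselves. The list held none of the tubulins. Of its 15 genes 7 were called higher at 32 h and 3 at 24 h, beside 1.13% and 0.548% of all features. At each of these times 1 was called lower (twe at 32 h and topi at 24 h), beside 1.18% and 0.987% of all features. At 32 h 7 were not called. The 5 largest changes at 32 h among genes with at least 10 CPM were those of fest (7.81), Rbp4 (6.27), kmg (4.37), nht (3.07) and Taf12L (2.03).

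fest, which acts in translation control in spermatocytes, went from 0.292 CPM in no HS to 26.5 after 24 h and 289 after 32 h. kmg, a chromatin regulator of spermatocytes, went from 2.63 CPM in no HS to 51.5 and 73.8 in the same libraries. twe, the Cdc25 phosphatase of male meiosis, went the other way, from 51.5 CPM in no HS down to 21.9 after 32 h (change -1.20). The testis TAF genes can and sa, named after their values were seen, were at 0.760 and 0.380 CPM at 32 h and were not called at any time, like aly, mia, bol and tomb.

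betaTub56D, the general beta-tubulin, was the member with the largest loss in absolute terms. It stood at 3599 CPM in no HS, 3495 after 8 h, 3367 after 16 h, 2712 after 24 h and 2215 after 32 h, each library lower than the one before it. The decrease lay mostly after 16 h. Its change was -0.04 after 8 h and -0.10 after 16 h, then -0.41 after 24 h and -0.70 after 32 h.

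The 24 h level was 75.4% of no HS (counting interval 74.4% to 76.3%) and the 32 h level 61.6% (60.7% to 62.4%). This is short of the 2-fold line and past a 1.5-fold line, which 4.04% of all features passed downward at 32 h, betaTub56D and alphaTub67C among them. At 24 h that line was passed downward by 3.15% of all features, with alphaTub67C and gammaTub37C among them. Among the 140 features with at least 1000 CPM in no HS, betaTub56D had the most negative change at 24 h and the second most negative at 32 h, a level limit chosen after its values were seen. The germ line genes summed to 78.8% of no HS at 32 h, with 5 of 7 below no HS. zpg, a germ cell gap junction protein, was called lower (change -1.33), beside 1.18% of all features. tej (-0.86), nos (-0.78), bgcn (-0.44) and vas (-0.15) were also below no HS. aub (0.26) and AGO3 (0.33), both of the piRNA pathway, were above no HS. The part of germ cell content in the decrease of betaTub56D was not tested.

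alphaTub84B, the main alpha-tubulin, did not share this course. It was at 3616 CPM in no HS, 3523 after 8 h, 3449 after 16 h, 3384 after 24 h and 3844 after 32 h. The highest and the lowest of these libraries were the last pair in time. Its change was -0.10 after 24 h and 0.09 after 32 h, against -0.41 and -0.70 for betaTub56D.

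Within each library the ratio of betaTub56D to alphaTub84B, in reads per kilobase of exon, was 0.933 in no HS, 0.930 after 8 h, 0.915 after 16 h, 0.751 after 24 h and 0.540 after 32 h. A ratio taken inside a library does not depend on how libraries were scaled to each other. The 32 h ratio had a counting interval of 0.534 to 0.546, far below the no HS value. It shows that the 2 genes changed unequally and not which of them stayed level. Reads that fit both alphaTub84B and alphaTub84D were mostly removed by the filter on mapping quality, so the level of the ratio is uncertain.

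**Figure D2:**
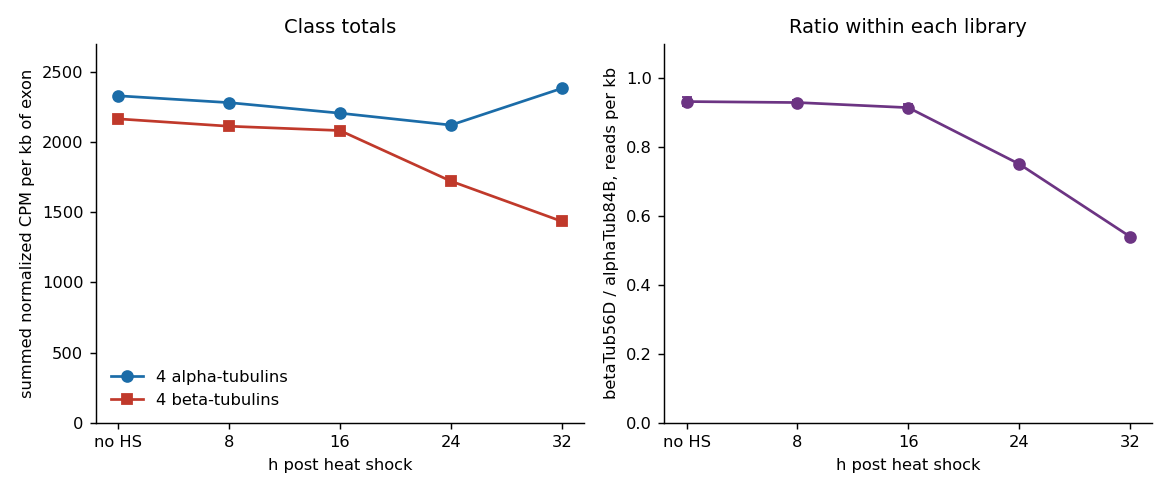
Left, summed normalized CPM per kilobase of exon (y axis) of the 4 alpha- and the 4 beta-tubulins at each time (x axis). Right, the ratio of betaTub56D to alphaTub84B in reads per kilobase within each library, with 95% counting intervals mostly smaller than the points. The class totals are close until 16 h and apart at 32 h, when the ratio is 0.540. Reads that fit both alphaTub84B and alphaTub84D were mostly removed by the mapping filter, so the level of alpha-tubulin is uncertain.

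Summed over the class, alpha-tubulins gave 2331 CPM per kilobase in no HS, 2282 after 8 h, 2207 after 16 h, 2122 after 24 h and 2384 after 32 h. Beta-tubulins gave 2166, 2114, 2083, 1722 and 1436 CPM per kilobase in the same libraries. Beta- to alpha-tubulin was thus 0.929 in no HS, 0.944 after 16 h, 0.812 after 24 h and 0.602 after 32 h. The balance of the transcripts held near its first value through 16 h and was tilted to alpha-tubulin in the last libraries. Under the same limit of the mapping filter, the summed level of alpha-tubulin, and with it the level of this balance, is uncertain.

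The other beta-tubulins did not offset the decrease of betaTub56D in the summed level. betaTub60D, known from muscle and from the cyst cells that enclose the germ cells, was at 573 CPM in no HS, 584 after 8 h, 671 after 16 h, 646 after 24 h and 596 after 32 h. It was highest at 16 h, with a change of 0.23 (counting interval 0.18 to 0.27), and back to 0.06 after 32 h. As a share of beta-tubulin per kilobase it went from 10.5% to 16.5%, while betaTub56D went from 88.9% to 82.5%.

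betaTub97EF, which has been described in fly gut and other somatic tissues, was at 23.7 CPM in no HS, 22.5 after 8 h, 27.9 after 16 h, 27.6 after 24 h and 25.3 after 32 h. Its changes were 0.23 after 16 h and 0.21 after 24 h, in the same libraries in which betaTub60D was high. The lower bounds of these intervals, 0.02 and 0.01, were just above 0. Its share of beta-tubulin per kilobase was 0.584% in no HS and 0.942% after 32 h.

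Markers of the muscle sheath were higher in these same libraries. The 12 genes summed to 1749 CPM in no HS and to 1930, 2201, 2272 and 2223 CPM at 8, 16, 24 and 32 h PHS. Of the 12, 12 were above no HS at 16, 24 and 32 h, and 1 was called higher at 24 h, beside 0.548% of all features. The 9 somatic cyst cell genes summed to 264, 233, 262, 251 and 222 CPM, none at 0 and none called. alphaTub85E, an alpha-tubulin of somatic muscle and sensory organs, was at 77.4% of no HS at 8 h and 69.0% at 16 h. The muscle sum was then at 110% and 126%, and the cyst cell sum at 88.4% and 99.4%. The counting interval of the log2 ratio of alphaTub85E held 0 at 8 h and ended just below 0 at 16 h. The part of muscle and of cyst cells in the values of alphaTub85E, betaTub60D and betaTub97EF was not tested.

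**Figure D3:**
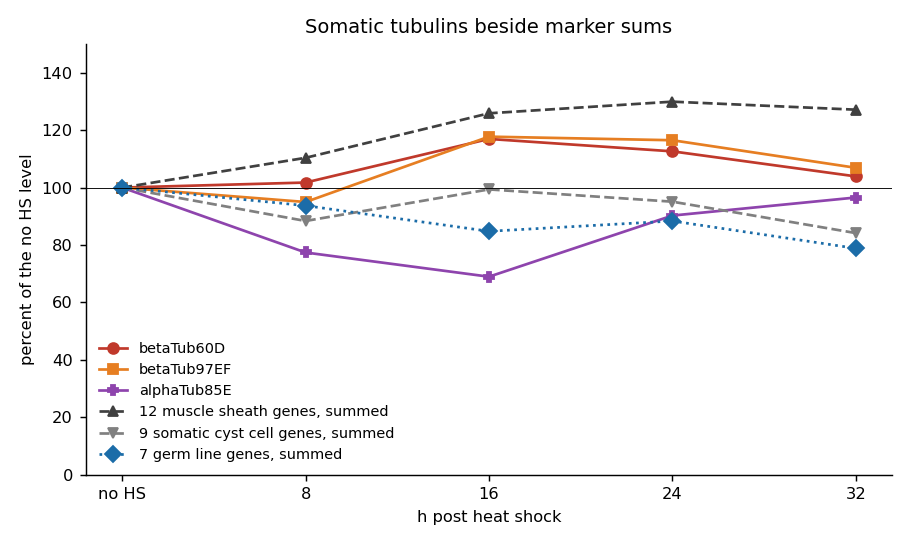
Level as percent of no HS (y axis) against time (x axis) for betaTub60D, betaTub97EF, alphaTub85E and the summed CPM of 12 muscle sheath, 9 somatic cyst cell and 7 germ line genes; each point is 1 library. Both beta-tubulins stand at 117% to 118% of no HS at 16 h and near 100% at 32 h, alphaTub85E is lowest at 16 h (69.0%), while the muscle sum stays at 127% after 32 h and the germ line sum is at 78.8%. The cyst cell sum leans on zfh1, which is at 114 CPM in no HS and 64.7 CPM after 32 h.

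alphaTub84D encodes almost the same protein as alphaTub84B, and reads that fit both genes were mostly removed by the mapping filter, so that the split between them is uncertain. With that limit, alphaTub84D was at 499 CPM in no HS, 516 after 8 h, 458 after 16 h, 367 after 24 h and 365 after 32 h. The 24 h and 32 h libraries were the low ones. Its change was -0.44 (counting interval of the log2 ratio -0.49 to -0.39) at 24 h and -0.45 (-0.50 to -0.40) at 32 h.

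By the reads that could be assigned, the split of the alpha-tubulin pair moved towards alphaTub84B, under the same limit. Per kilobase of all exonic bases, including stretches that may not map uniquely, alphaTub84B exceeded alphaTub84D 8.18-fold in no HS, 7.71-fold after 8 h, 8.51-fold after 16 h, 10.4-fold after 24 h and 11.9-fold after 32 h. alphaTub84B held 88.6% of alpha-tubulin per kilobase in no HS and 92.0% after 32 h, and alphaTub84D 10.8% and 7.73%.

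alphaTub85E was low throughout. It was at 5.16 CPM in no HS, 3.99 after 8 h, 3.56 after 16 h, 4.66 after 24 h and 4.98 after 32 h, from 53 to 133 reads. The lowest value was at 16 h, with a change of -0.43, and the 32 h value was close to no HS at -0.04. The counting intervals of the log2 ratio held 0 at 8, 24 and 32 h and ended just below 0 after 16 h (-1.06 to -0.00).

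alphaTub67C was the member with the largest lasting decrease. Its 181 reads in no HS, 355 after 8 h, 155 after 16 h, 95 after 24 h and 82 after 32 h stood for 17.6, 13.3, 7.36, 3.33 and 3.46 CPM. The decrease was already visible at 8 h and levelled off after 24 h. The change was -0.39 after 8 h, -1.16 after 16 h, -2.11 after 24 h and -2.06 after 32 h.

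The counting interval of the log2 ratio lay below 0 at every time, from -0.67 to -0.15 after 8 h and from -2.78 to -2.04 after 24 h. The 24 h level was 18.9% of no HS. Ordered by change over all 17528 features, alphaTub67C had the 39th most negative value at 16 h, the 6th at 24 h and the 11th at 32 h. Its share of alpha-tubulin per kilobase was never large and went from 0.468% in no HS to 0.0898% after 32 h, so the class total did not turn on it.

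The genes with the most similar course to alphaTub67C, by the root mean square difference of the 4 changes among 6819 features with at least 10 CPM in one library, were RhoGAP100F (0.09), Mov10 (0.14) and Oseg2 (0.15). RhoGAP100F was at 88.0 CPM in no HS, 71.5 after 8 h, 42.5 after 16 h, 20.9 after 24 h and 20.5 after 32 h. It was the only one of these features within 0.1 of alphaTub67C on the log2(CPM + 1) scale. The added 1 CPM shrinks the changes of alphaTub67C (at 24 h a log2 ratio of -2.41 and a change of -2.11) more than those of RhoGAP100F. The distances and their order depend on that constant. Mov10 went from 19.3 to 3.93 CPM and Oseg2, a component of the intraflagellar transport machinery, from 77.6 to 21.8 CPM between no HS and 32 h.

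**Figure D4:**
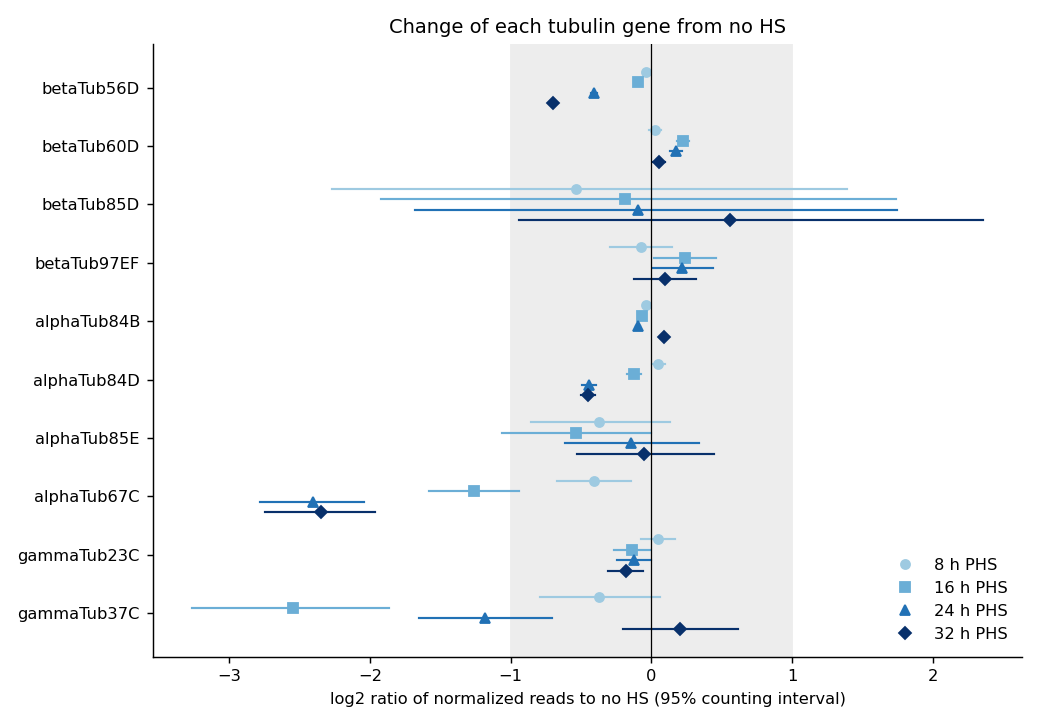
Log2 ratio of normalized reads to no HS (x axis) for each tubulin gene (y axis) at 8, 16, 24 and 32 h PHS, with lines for 95% counting intervals and a grey band within 2-fold. alphaTub67C at 16, 24 and 32 h and gammaTub37C at 16 and 24 h lie left of the band on this scale, which has no added constant, and betaTub85D has intervals that all hold 0.

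gammaTub37C was called lower at 16 h and was within counting error of no HS at 32 h. alphaTub85E was also lowest at 16 h, with no call and a counting interval that ended just below 0. Its intervals for 16 h against 8 h and for 24 h against 16 h held 0. gammaTub37C had 71 reads in no HS, 143 after 8 h, 25 after 16 h, 87 after 24 h and 188 after 32 h. These stood for 6.91, 5.34, 1.19, 3.05 and 7.94 CPM. The 16 h library was the lowest and the 32 h library the highest. The change from no HS was -0.32 after 8 h, -1.86 after 16 h, -0.97 after 24 h and 0.18 after 32 h.

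At 16 h the counting interval of the log2 ratio was -3.26 to -1.87, and the change was the 4th most negative of all 17528 features. At 24 h the interval was -1.65 to -0.71, and the gene was just short of the 2-fold call on the scale with 1 CPM added. At 32 h it was -0.20 to 0.61 and held 0. Between 16 and 32 h the level was 6.69-fold higher, with an interval of the log2 ratio from 2.14 to 3.41.

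Against 16 h, gammaTub37C was the tubulin gene called higher at 32 h, where 1.02% of all features were called higher, and it was also called higher at 32 h against 24 h (0.742%) and lower at 16 h against 8 h (0.177%). Most of these values rest on a few CPM, and 1 library carries the low point. No feature with at least 10 CPM in one library came within 0.1 of its course on the log2(CPM + 1) scale. The nearest were X11Lbeta (0.37), CG6220 (0.44) and exu (0.48), the last of which is known for the localization of mRNA in the oocyte. exu was at 26.2 CPM in no HS, 25.2 after 8 h, 11.3 after 16 h, 8.54 after 24 h and 26.1 after 32 h.

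The spermatocyte genes topi and nht, picked after their values were seen, also had their lowest values in the middle libraries. topi, a tMAC subunit, was at 18.3 CPM in no HS, 16.9 after 8 h, 8.35 after 16 h, 5.43 after 24 h and 36.2 after 32 h. nht, a testis form of a TAF protein, was at 2.73, 1.19, 0.380, 5.85 and 30.2 CPM. The library of 16 h was low for nht and gammaTub37C, and the library of 24 h for topi and exu. Whether these courses are related was not tested.

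gammaTub23C, the gamma-tubulin of mitotic centrosomes in most cells, was nearly level. It was at 76.0 CPM in no HS, 78.5 after 8 h, 69.0 after 16 h, 69.7 after 24 h and 66.9 after 32 h. The change at 32 h was -0.18 (counting interval of the log2 ratio -0.31 to -0.06). Per kilobase it exceeded gammaTub37C 9.68-fold in no HS, 12.9-fold after 8 h, 51.2-fold after 16 h, 20.1-fold after 24 h and 7.42-fold after 32 h, and gammaTub37C made up 9.36%, 7.17%, 1.92%, 4.73% and 11.9% of gamma-tubulin.

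Ordered per kilobase of exon in no HS, alphaTub84B (2064 CPM per kilobase) and betaTub56D (1926) came first, followed by alphaTub84D (252) and betaTub60D (228). gammaTub23C (41.1), betaTub97EF (12.7) and alphaTub67C (10.9) came next, and gammaTub37C (4.25), alphaTub85E (3.31) and betaTub85D (0.264) were last. At 32 h alphaTub84B (2194) and betaTub56D (1185) still led. betaTub60D (237) then stood above alphaTub84D (184), gammaTub37C (4.88) stood above alphaTub85E (3.19), and alphaTub67C (2.14) was next to last. With 1 library per time, neighbours in this order cannot be compared against the spread of replicates. The values of alphaTub84B and alphaTub84D carry the limit of the mapping filter given above.

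Outside the 10 genes, 2 further tubulin genes of a list of 6 names had a row. betaTub65B, a beta-tubulin gene inside the sfl gene on 3L, had 0 reads in no HS and 4, 5, 4 and 5 reads at 8, 16, 24 and 32 h PHS. A count of 0 in the no HS library allows up to 0.292 CPM, above the 0.140 to 0.237 CPM of the others. CG7794, which is annotated among the tubulins, was at 1.46, 1.57, 1.04, 1.30 and 1.44 CPM and was not called at any time.

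The wider tubulin pathway held few genes past 2-fold. Over 60 measured genes of 5 lists, which cover the start, folding, modification and turnover of microtubules, 0 were called higher at any time and 1 was called lower, at 32 h PHS, where 1.13% of all features were called higher and 1.18% lower. Beside shares that small, counts of 0 and 1 among 60 genes do not set the pathway apart from other genes. The median change of the 60 was 0.00 after 8 h, -0.09 after 16 h, -0.04 after 24 h and 0.00 after 32 h. All 8 genes of the CCT chaperonin, which folds newly made alpha- and beta-tubulin, stayed between -0.23 and 0.18.

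The 14 genes of the gamma-tubulin ring complex and of augmin, which brings it to existing microtubules, had medians of 0.03, -0.18, -0.17 and -0.04 at 8, 16, 24 and 32 h, and 12 of 14 were below no HS at 16 h and at 24 h. The 6 tubulin folding cofactors stayed between -0.54 and 0.36. None of the genes in these lists was called. gammaTub37C, which can be part of the complex, was called lower at 16 h, from 6.91 CPM in no HS to 1.19. That call was lost with 5 CPM added (-0.95), and the gene did not reach the 10 CPM filter, so the contrast rests on low counts.

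Among 15 tubulin modifying enzymes none was called. TTLL5, a ligase that adds glutamate chains to tubulin, had the highest change of the list at 32 h, 0.90, with 14.0 CPM in no HS, 17.1 after 8 h, 19.6 after 16 h, 23.1 after 24 h and 27.1 after 32 h. Each of its libraries was above the one before. TTLL4B had the lowest change of the list at 16 h, -0.88. Both were picked here after their values were seen.

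The called gene was stai, the fly stathmin, which binds free tubulin dimers and favours microtubule shortening. It was at 229 CPM in no HS, 187 after 8 h, 143 after 16 h, 121 after 24 h and 112 after 32 h, with a change of -1.02 after 32 h. Like betaTub56D it was lower in each library than in the one before. In the same list of 17 genes for microtubule ends, severing and depolymerising, the spindle proteins mars (change -0.79) and asp (-0.71) were the next lowest at 32 h, also named after their values were seen.

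**Figure D5:**
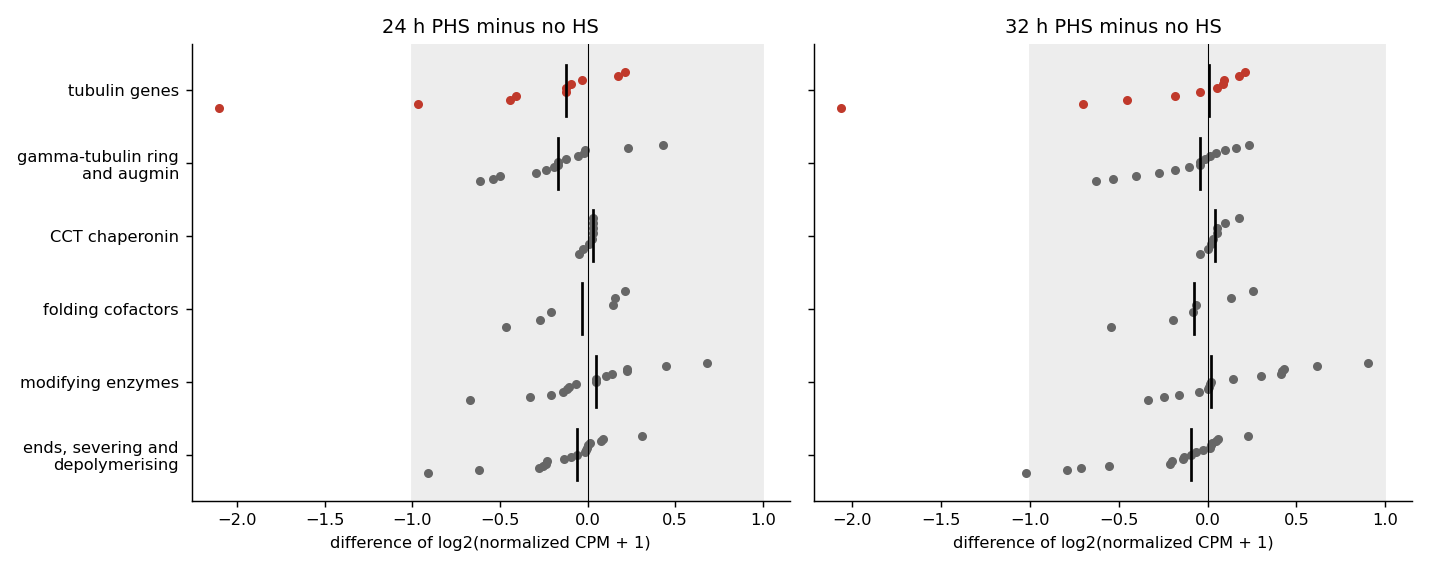
Change from no HS on the log2(normalized CPM + 1) scale (x axis) at 24 h PHS (left) and 32 h PHS (right) for the 10 tubulin genes (red) and the genes of 5 pathway lists (grey), with black lines for medians and a grey band within 2-fold. The medians lie near 0; alphaTub67C at -2.11 and -2.06 is the point farthest left, and stai is at -1.02 in the list of ends, severing and depolymerising at 32 h.

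In the heat shock list 3 of 10 genes were called higher at 8 h PHS, beside 0.2% of all features. Of the 10, 9 were above no HS at 8 h and 1 was below, Hsp83, at 4956 CPM in no HS and 3877 after 8 h (change -0.35). All 10 were above no HS at 24 and 32 h, with none called. Hsp23 was at 424 CPM in no HS and 2229 after 8 h, and Hsp26 and Hsp68 were the others. At that time the changes of the tubulin genes lay between -0.39 for alphaTub67C and 0.05 for alphaTub84D and gammaTub23C.

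betaTub85D had few reads and stayed at 0.336 to 0.718 CPM, below the 1 CPM added, which flattens its changes. Its log2 ratios to no HS ran from -0.54 to 0.56, and its changes from -0.15 to 0.21. The genes nearest to its course thus describe a flat line more than a pattern. Of the 6819 features, 375 lay within 0.1 of its 4 changes. The nearest were CG12213 (0.02), MED14, sina, Drp1 and Spec2.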

How the data were processed

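The table holds 5 libraries (no HS and 8, 16, 24 and 32 h PHS) from testes with seminal vesicles, 1 per condition; samples were assigned to columns through the hours in the column names. The authors trimmed the 100 bp paired reads with trim galore 0.4.3, mapped them to BDGP6.46 using STAR 2.5.3, kept proper pairs with a mapping quality of 10 (SAMtools 1.4.1), counted genes with featureCounts of subread 1.5.0 and normalized by the TMM method of edgeR 3.34.0. What they deposited is log2(normalized CPM + 1). Whether counting used strand is not given in the sources used here.

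The log2 was undone and 1 subtracted to give CPM. In every library these CPM were multiples of a single step (whole within 0.01 for 100% of values), from which the reads were recovered. No count model was fitted, because 1 library per condition gives no estimate of variation. Change is the difference of log2(CPM + 1), and a pseudocount of 1 CPM and a 2-fold limit were used. Intervals are 95% Clopper-Pearson intervals of the reads. Levels per kilobase use the union of exonic bases in the BDGP6.54 annotation. Named genes were the 10 tubulins, other annotated tubulins, the nearest courses, and up to 5 genes per list past 2-fold with at least 10 CPM; others are marked as chosen after their values were seen or stand for the state of the testes. The members and lists were chosen with earlier results of these data known. The statistics were run on simulated counts that held counting error only, with changes planted in features of at least 10 CPM. Such counts cannot test variation between libraries or changes of genes at a few CPM. Python 3.11.15, pandas 2.3.3 and scipy 1.17.1 were used. Alternatives were other pseudocounts (0.1 and 5 CPM), a 10 CPM filter, other scalings, other baselines and limits of 1.5-fold and 3-fold.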

Additional observations from a re-analysis of the deposited data

How the results depend on the processing

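Of the counts of tubulin genes past the limit, those at 16 h PHS depended most on the settings. With 2 genes lower at 16 h as reported, a pseudocount of 5 CPM left 0, and the 10 CPM filter left 1 (alphaTub67C). The 8 h library as the baseline, the mean of no HS and 8 h as the baseline, and a 3-fold limit each left 1 (gammaTub37C). At 24 h, a pseudocount of 0.1 CPM or a 1.5-fold limit gave 2 (alphaTub67C and gammaTub37C) in place of 1, and at 32 h a 1.5-fold limit gave 2 (betaTub56D and alphaTub67C). At 16 h the change of alphaTub67C was -0.87 with 5 CPM, -0.77 against 8 h and -0.98 against the mean baseline, and that of gammaTub37C was -0.95 with 5 CPM, while at 24 h gammaTub37C reached -1.16 with 0.1 CPM. No called change turned its direction, and rescaling the libraries by their total, median ratio or upper quartile changed no call. Among uncalled changes, that of betaTub60D at 8 h went from 0.03 to -0.02 with the upper quartile. Against the 8 h library, alphaTub85E went from -0.12 to 0.18 at 24 h and from -0.04 to 0.26 at 32 h, and betaTub85D from -0.06 to 0.10 at 16 h and from -0.03 to 0.12 at 24 h; the mean baseline turned the same 4 changes. Depth limits betaTub85D most, at 5 to 17 reads per library. No paired analysis was possible because each condition has 1 library.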
